A study of Mus musculus with 10 samples.

Results

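The ADAM sheddase genes Adam8, Adam9, Adam10, Adam15 and Adam17 and the iRhom genes Rhbdf1 and Rhbdf2 were examined in tumour epithelium of the mouse. These 7 genes were chosen by name, and all 7 were among the 17495 genes tested. RNA sequencing covered 10 libraries of epithelial cells sorted by flow cytometry from pancreatic ductal adenocarcinoma (PDAC), 5 in each of 2 groups. The tumours of all 10 libraries grew from T6-LOH organoids of the KPC mouse model of PDAC, transplanted orthotopically along with PSCs (pancreatic stellate cells, the fibroblast precursors of the pancreas). In 5 libraries the co-transplanted cells were PSC4 ROSA, read here as the Egfr WT PSC of the series title. In the other 5 they were PSC4 EGFR KO B4 (Egfr KO PSC), read here as a single Egfr knockout clone. What Egfr loss does and what is particular to that clone cannot be told apart. The title names NSG mice, which lack lymphocytes, and the strain label of every library reads C57BL/6J. Neither the age of the mice, nor the time of growth, nor the sort markers were found in the labels.

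EGFR ligands are made as precursors that span the membrane, and a metalloprotease has to cut them before they can act at a distance. ADAM17 is the main protease for transforming growth factor alpha, amphiregulin, epiregulin and heparin-binding EGF, and ADAM10 for EGF and betacellulin. The iRhoms are members of the rhomboid family that have lost the protease activity. They carry ADAM17 out of the endoplasmic reticulum and stay bound to it at the cell surface. In PDAC the epithelium grows under RAS signalling, and EGFR ligands are part of the exchange between tumour cells and stroma.

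The catalytic site of the ADAM proteases is a short zinc-binding motif, shown here for the 5 ADAM genes. The coding sequences below come from the GENCODE M21 transcripts (GRCm38), run 5′ to 3′, and have the codons of the 3 histidines and of the glutamate in capitals.
Adam8, codons 328 to 339: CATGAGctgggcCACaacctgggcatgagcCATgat
Adam9, codons 347 to 358: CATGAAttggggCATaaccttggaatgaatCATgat
Adam10, codons 384 to 395: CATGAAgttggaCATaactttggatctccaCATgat
Adam15, codons 349 to 360: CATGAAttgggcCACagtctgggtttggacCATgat
Adam17, codons 405 to 416: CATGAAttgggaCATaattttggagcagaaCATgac
Of these 36 bases, 21 were identical between Adam8 and Adam17, the least of the 10 pairs. The most was 28, for Adam10 with Adam17, Adam8 with Adam9 and Adam8 with Adam15. The motif was found in 1 coding transcript searched for each of the 5 ADAM genes, which was Adam15-201 for Adam15 and the most abundant coding form for the others, and in neither iRhom transcript (Rhbdf1-201 with 856 codons and Rhbdf2-202 with 827). The iRhoms belong to another family, so its absence there says nothing of their lost protease activity.

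All 7 genes were expressed in every library. The estimated count of a gene lay between 835 (Adam15) and 14647 (Adam10), out of 39534055 to 53816086 counts in genes per library. Levels of different genes are given in TPM, the deposited abundance scaled to transcript length and library size, summed over the transcripts of a gene. Over the 10 libraries the order by mean TPM was Adam10 (73.6 ± 18.97, SD, n = 10), Adam9 (62.9 ± 20.9), Adam17 (44.9 ± 8.42), Adam8 (36.4 ± 9.72), Adam15 (25.9 ± 5.04), Rhbdf2 (22.7 ± 2.27) and Rhbdf1 (20.4 ± 4.14). The ranges of neighbours in this order overlapped at every step. Adam10 exceeded Adam9 in 8 of 10 libraries, Adam9 exceeded Adam17 in 8, Adam17 exceeded Adam8 in 8, and Adam8 exceeded Adam15 in 9. Adam15 exceeded Rhbdf2 in 7 libraries, and Rhbdf2 exceeded Rhbdf1 in 7.

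**Figure D1:**
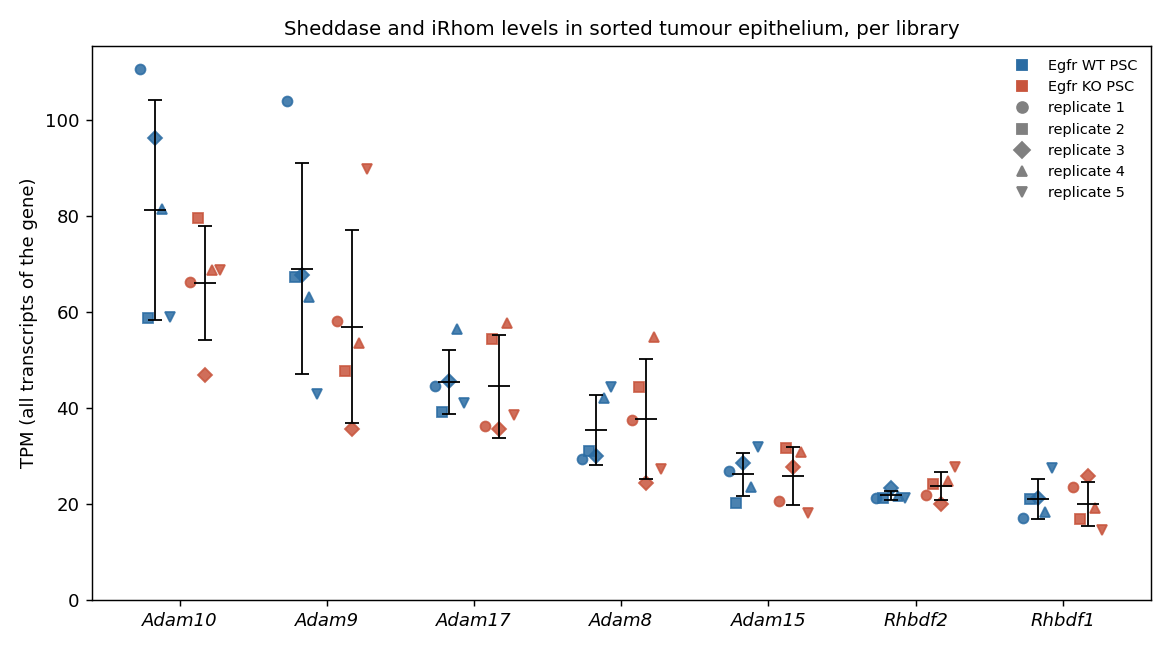
TPM of each gene (vertical axis, linear, from 0) in each of the 10 libraries, with Egfr WT PSC in blue and Egfr KO PSC in red, a marker shape per replicate number, which pairs nothing, and black bars for mean ± SD (n = 5). The colours overlap for every gene, and the points of Rhbdf2 lie closest together, from 20.0 to 27.6 TPM.

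The comparison of the groups asks how Egfr loss in the PSCs changes the epithelial cells beside them. None of the 7 genes passed the test: edgeR's quasi-likelihood test called 0 of 7, against 0 of 17495 genes (0%), with adjusted p between 0.742 and 0.993. At an unadjusted p under 0.05 there were 0 of 7 members, against 1426 of all genes (8.15%), and the groups overlapped in all 7, while they did not overlap in 1.52% of all genes. DESeq2 called 127 genes (0.742% of those with an adjusted p) and limma voom 3 (0.0171%), and neither called any of the 7. Of the 7 fitted fold changes 2 were above 0 and 5 below, with a median log2 fold change of -0.10, against 8762 above and 8733 below among all genes. Whether the 5 libraries of a group stem from 5 mice is not stated, and these p-values measure only the spread between libraries, which may be technical. In such bulk samples, fewer cells of a type and less RNA per cell cannot be told apart.

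**Figure D2:**
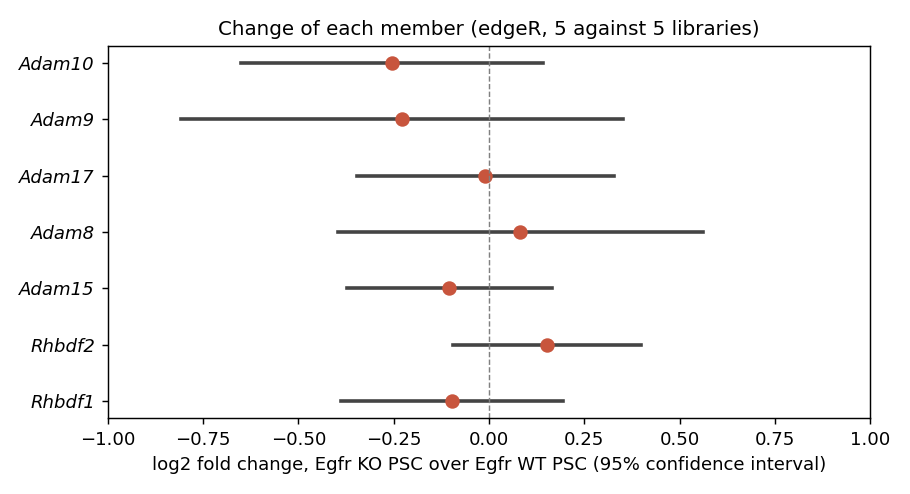
log2 fold change of each gene, Egfr KO PSC over Egfr WT PSC (horizontal axis), as a point with its 95% confidence interval from edgeR, 5 against 5 libraries. Every interval includes 0, and the widest is that of Adam9, from -0.81 to 0.35.

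Adam17, the protease of most EGFR ligands, was at 44.6, 39.1, 45.5, 56.3 and 41.0 TPM in Egfr WT PSC replicates 1 to 5 and at 36.1, 54.4, 35.5, 57.7 and 38.6 TPM in Egfr KO PSC replicates 1 to 5. The Egfr KO PSC libraries held both the highest value (replicate 4) and the lowest (replicate 3), so that the whole Egfr WT PSC group lay within their range. The log2 fold change was -0.01 (SE 0.15, 95% confidence interval -0.35 to 0.33, edgeR adjusted p = 0.993). Leaving out 1 library gave -0.12 to 0.079. On the linear scale the interval runs from 0.786 to 1.26 times the Egfr WT PSC level. Transcript Adam17-201, which codes for the full protease, held between 86.0% and 96.6% of the TPM of the gene.

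Adam10, which sheds EGF, betacellulin, Notch receptors and E-cadherin, was at 111, 58.6, 96.2, 81.4 and 58.8 TPM with Egfr WT PSCs and at 66.3, 79.6, 46.8, 68.7 and 68.6 TPM with Egfr KO PSCs. Egfr WT PSC replicates 1, 3 and 4 were above all Egfr KO PSC libraries, and Egfr WT PSC replicates 2 and 5 were above Egfr KO PSC replicate 3 alone. Its log2 fold change, -0.25, was the farthest below 0 of the 7 (SE 0.18, 95% confidence interval -0.65 to 0.14, edgeR adjusted p = 0.742). It was -0.13 without Egfr WT PSC replicate 1, -0.14 without Egfr KO PSC replicate 3 and -0.34 without Egfr WT PSC replicate 5. A single form, Adam10-201, held 99.4% to 99.9% of the TPM.

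Adam9, a broadly expressed protease reported to act on heparin-binding EGF, varied most, with a 2.93-fold span over the 10 libraries. It was at 104, 67.2, 67.6, 63.1 and 42.9 TPM with Egfr WT PSCs and at 58.1, 47.7, 35.5, 53.5 and 89.7 TPM with Egfr KO PSCs. Replicate 1 of the Egfr WT PSC group and replicate 5 of the Egfr KO PSC group stood above the other 8 libraries. The log2 fold change was -0.23 (SE 0.27, 95% confidence interval -0.81 to 0.35, edgeR adjusted p = 0.853). These same libraries set its size: it was -0.05 without Egfr WT PSC replicate 1 and -0.49 without Egfr KO PSC replicate 5, it was -0.08 without Egfr KO PSC replicate 3, and it was -0.35 without Egfr WT PSC replicate 5.

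Adam8, a protease of leukocytes that pancreatic carcinoma cells also make, was at 29.2, 31.0, 29.9, 42.0 and 44.4 TPM with Egfr WT PSCs and at 37.5, 44.4, 24.3, 54.7 and 27.2 TPM with Egfr KO PSCs. The values ran from the lowest to the highest of the series within the Egfr KO PSC group. The fitted log2 fold change was 0.08 (SE 0.22, 95% confidence interval -0.40 to 0.56, edgeR adjusted p = 0.947), 0.22 without Egfr KO PSC replicate 3 and -0.09 without Egfr KO PSC replicate 4. Of the 12 macrophage markers listed, 11 were tested, of which 8 were fitted lower and 3 higher with Egfr KO PSCs, none called, and none was at 0 in every library. The median log2 fold change of the 11 was -1.17. The summed level of the 12 was 275 to 468 CPM (counts scaled to TMM-normalised library size) with Egfr WT PSCs, against 224 to 337 CPM with Egfr KO PSCs. The 8 neutrophil markers summed to 2.53 to 7.66 CPM and 3.36 to 8.33 CPM, and Adam8 was at 49.0 to 112 CPM. The part of macrophages and neutrophils in the Adam8 values was not tested. Over the 10 fits that each left out 1 library, the log2 fold change of Adam8 ran from -0.087 to 0.22.

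Adam15, a protease with a proline-rich tail inside the cell, was at 26.9, 20.0, 28.5, 23.5 and 31.8 TPM with Egfr WT PSCs and at 20.6, 31.5, 27.6, 30.8 and 18.1 TPM with Egfr KO PSCs. Both groups spread over nearly the same range. The log2 fold change was -0.10 (SE 0.12, 95% confidence interval -0.37 to 0.16, edgeR adjusted p = 0.855). It moved both ways with single libraries, to -0.06 without Egfr WT PSC replicate 1, -0.05 without Egfr KO PSC replicate 5 and -0.18 without Egfr KO PSC replicate 2, and it was -0.0077 with effective length offsets.

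Rhbdf2 encodes iRhom2, the partner of ADAM17 that is best known from myeloid cells. It was at 21.3, 21.3, 23.3, 21.6 and 21.2 TPM with Egfr WT PSCs and at 21.9, 24.1, 20.0, 24.8 and 27.6 TPM with Egfr KO PSCs. The Egfr WT PSC libraries were closely grouped (SD 0.886), and Egfr KO PSC replicates 2, 4 and 5 were above all of them. Its log2 fold change was 0.15 (SE 0.11, 95% confidence interval -0.09 to 0.40, edgeR adjusted p = 0.752), the highest of the 7. It was 0.23 without Egfr KO PSC replicate 3 (edgeR adjusted p = 0.457) and 0.07 without Egfr KO PSC replicate 5.

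Rhbdf1 encodes iRhom1, the partner of ADAM17 in most other tissues. It was at 16.95, 21.0, 21.2, 18.2 and 27.5 TPM with Egfr WT PSCs and at 23.4, 16.8, 25.8, 19.1 and 14.6 TPM with Egfr KO PSCs. The 2 highest values came from different groups, replicate 5 with Egfr WT PSCs and replicate 3 with Egfr KO PSCs. The log2 fold change was -0.10 (SE 0.13, 95% confidence interval -0.39 to 0.19, edgeR adjusted p = 0.870), and it ran from -0.15 (without Egfr WT PSC replicate 1) to -0.02 (without Egfr KO PSC replicate 5) when 1 library was left out.

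A macrophage score and a fibroblast score, the mean log2 CPM of the tested markers of each list, were added to the model one at a time and moved several of these fold changes by over 1.5 times, with none of the 7 called. With the macrophage score the log2 fold change was -0.58 for Adam9, -0.47 for Adam10 and -0.09 for Adam17, and it was -0.11 for Adam8, 0.0053 for Rhbdf1 and 0.08 for Rhbdf2. With the fibroblast score it was -0.46 for Adam9, -0.54 for Adam10, -0.21 for Adam15 and -0.20 for Adam17, and it was -0.0089 for Rhbdf1 and 0.05 for Rhbdf2. The macrophage score turned the sign for Adam8 and Rhbdf1, and both scores took Adam9, Adam10, Adam15 and Adam17 farther below 0. Most macrophage markers were fitted lower with Egfr KO PSCs, so this score may vary with the group. Such a fit cannot fully separate score from group.

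Some libraries were low or high for several of the genes together. Egfr KO PSC replicate 3 had the lowest TPM of the 10 libraries in 5 of the 7 genes, namely Adam8, Adam9, Adam10, Adam17 and Rhbdf2, and the second highest in Rhbdf1. In the same library the summed endothelial markers were the highest of the series (55.3 CPM, against 11.8 to 41.6 CPM in the other libraries) and the summed epithelial markers the lowest (14324 CPM, against 16431 to 25486 CPM). Its neutrophil sum was also the highest of the series (8.33 CPM). The macrophage sum (337 CPM) was the highest of its group but not of the series. The fibroblast and acinar sums (497 and 341 CPM) lay within the range of the other libraries. The part of these cell types in the low values was not tested. Egfr KO PSC replicate 5 had the lowest Adam15 and Rhbdf1 and the highest Rhbdf2, and Egfr WT PSC replicate 1 the highest Adam9 and Adam10.

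The ratio of Rhbdf2 to Rhbdf1, in TPM, was 1.26, 1.01, 1.10, 1.19 and 0.769 beside Egfr WT PSCs, against 0.937, 1.43, 0.777, 1.30 and 1.89 with Egfr KO PSCs. Either iRhom gene was thus the higher in some libraries of both groups. Over protein-coding forms only, Rhbdf2 was the higher in 8 of 10 libraries. That ratio was 0.957 in Egfr WT PSC replicate 5 and 0.948 in Egfr KO PSC replicate 3. The ratio of Adam17 to Adam10 stayed below 1 in every library, from 0.403 (Egfr WT PSC replicate 1) to 0.840 (Egfr KO PSC replicate 4), and the groups overlapped.

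Over the 10 libraries, 3 of the 21 pairs of genes had a Pearson r above 0.5 in log2 CPM and 2 had one below -0.5, given as a description. Adam8 and Adam17 had r = 0.73 (Spearman rho 0.66), and r = 0.42 without Egfr KO PSC replicates 3 and 4, the libraries farthest from the Adam8 median. Adam9 and Adam10 had r = 0.70 (rho 0.64), and 0.17 once replicate 1 of the Egfr WT PSC group and replicate 3 of the other were left out, so that this relation rests on those libraries. Adam10 and Adam15 had r = 0.65 (rho 0.68), and 0.52 without the same libraries. The negative pairs were Adam9 with Rhbdf1 (r = -0.54, rho -0.36) and Rhbdf1 with Rhbdf2 (r = -0.57, rho -0.27). Without the 2 libraries farthest from the median of the first gene named, r was -0.44 and 0.12. Within the Egfr WT PSC libraries alone, Rhbdf1 with Rhbdf2 had r = 0.72, and within the Egfr KO PSC ones -0.82. For Adam9 with Rhbdf1 these values were -0.74 and -0.63.

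The genes most like each member over the 10 libraries, by Pearson r of log2 CPM among genes whose mean reached 5 CPM, all had r of 0.889 or more. So high a value is no sign of a link when 10 libraries and so many genes are compared, and the genes are only named. For Adam17 they were Pcnx4 (r = 0.97) and Parp11 (0.90), for Adam10 Mapre2 (0.97) and Tm9sf4 (0.97), and for Adam9 Sec24d (0.96), a subunit of the coat that forms at the endoplasmic reticulum, and Mgst3 (0.95). For Adam8 they were Tpm1 (0.94), a tropomyosin gene, and Fam69a (0.91), and for Adam15 Pigb (0.94) and Bclaf3 (0.94). For Rhbdf2 they were Baiap2 (0.94) and Glo1 (0.93), and for Rhbdf1 Fbxo28 (0.90) and Gprc5c (0.89).

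The genes differed in how much of their TPM came from transcripts annotated as protein coding. The share was 99.1% or more in every library for Adam9 and Adam10, 88.3% to 95.4% for Adam8, 86.0% to 96.6% for Adam17 and 92.4% to 95.1% for Rhbdf2. It was 62.5% to 78.5% for Rhbdf1 and 23.6% to 47.8% for Adam15. The most abundant Adam15 form by TPM was Adam15-209, a processed transcript of 554 bases, with 8.10 ± 4.05 TPM (SD, n = 10). Counted over protein-coding forms only, Adam15 was at 9.55 ± 2.03 TPM and became the lowest of the 7, below Rhbdf1 (15.1 ± 3.31 TPM) in 10 of 10 libraries, while Rhbdf2 (21.2 ± 2.06 TPM) took the fifth place. This count was added after the forms had been seen. Short forms gain TPM from few reads, and the quantification divides reads shared between forms by estimation, so the split between forms carries an error that the spread between libraries shows only in part.

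The coding forms of Adam15 differ in the tail inside the cell, which is where proteins with SH3 domains bind. Adam15-201 has a segment of 147 bases (49 codons) that Adam15-202 lacks, 55 codons before the end of the coding sequence, and Adam15-204 has only the last 72 bases (24 codons) of it. The segment is shown because the shares of these forms differed widely between libraries, with the 72 bases of Adam15-204 in capitals.
Adam15-201, tail segment: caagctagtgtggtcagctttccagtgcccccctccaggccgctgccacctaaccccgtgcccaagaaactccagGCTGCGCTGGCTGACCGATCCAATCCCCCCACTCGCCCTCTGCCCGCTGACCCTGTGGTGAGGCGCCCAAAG
Of the TPM of protein-coding Adam15 forms, Adam15-202, without the segment, held 51.9%, 65.9%, 43.1%, 45.7% and 20.1% with Egfr WT PSCs and 52.0%, 41.7%, 8.49%, 32.9% and 61.2% with Egfr KO PSCs. The lowest shares belonged to replicate 5 of the Egfr WT PSC group and replicate 3 of the Egfr KO PSC group, where Adam15-201 held 55.5% and 80.0% instead. The median loss of length to effective length, over transcripts longer than 3000 bases, was also lowest there, at 133 bases in both, against 134 to 153 bases in the other libraries. That value was 134 bases in Egfr WT PSC replicate 3, whose Adam15-202 share was 43.1%. Its part in the shares was not tested.

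**Figure D3:**
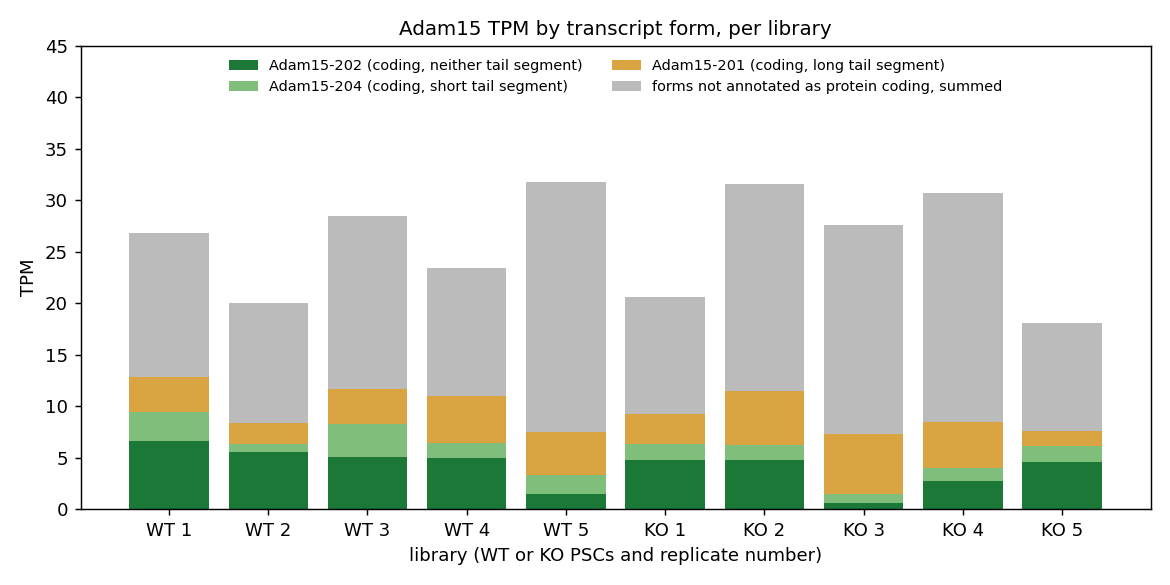
Adam15 TPM per library (bars from 0, stacked by form), 5 libraries with WT PSCs and 5 with KO PSCs. Forms not annotated as protein coding, in grey, make up 52.2% to 76.4% of each bar, and the dark green form without the tail segment is smallest in WT replicate 5 and KO replicate 3.

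Adam8 had 2 leading forms, Adam8-201 and Adam8-202, which differ within the coding sequence by 3 bases, the length of 1 codon, near its start. The extra bases are shown in capitals with 9 bases on either side and, because the same letters follow them, either copy may be the added one.
Adam8-202: tatggacacCAGcagtagccc
Of the TPM of these forms, Adam8-202 held 30.0% to 40.7%, with 36.6 ± 4.01% beside Egfr WT PSCs, against 35.1 ± 5.07% with Egfr KO PSCs (SD, n = 5 each). Of the 53 transcripts listed for the 7 genes, 27 passed the filter. None was called by edgeR over all 46220 transcripts tested (0%), and none had an unadjusted p under 0.05 (5.14% of all). The lowest adjusted p of the 27 was 0.986.

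The other genes of the pathway were taken from lists of substrates, partners and inhibitors, and no gene of these lists was called in either direction. Their levels set the scale of the members, in mean TPM over the 10 libraries. Among the EGFR ligands, Hbegf (heparin-binding EGF) was at 520 ± 78.0 TPM, above every member, and Btc (betacellulin) at 52.4 ± 8.62 TPM. Areg, Ereg and Tgfa were at 16.3 ± 7.25, 15.7 ± 4.79 and 13.9 ± 3.19 TPM, below Adam17 and Adam10 on average, and Egf was at 0.618 ± 0.226 TPM. Egfr itself, the receptor, was at 20.3 ± 5.95 TPM, close to both iRhom genes.

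**Figure D4:**
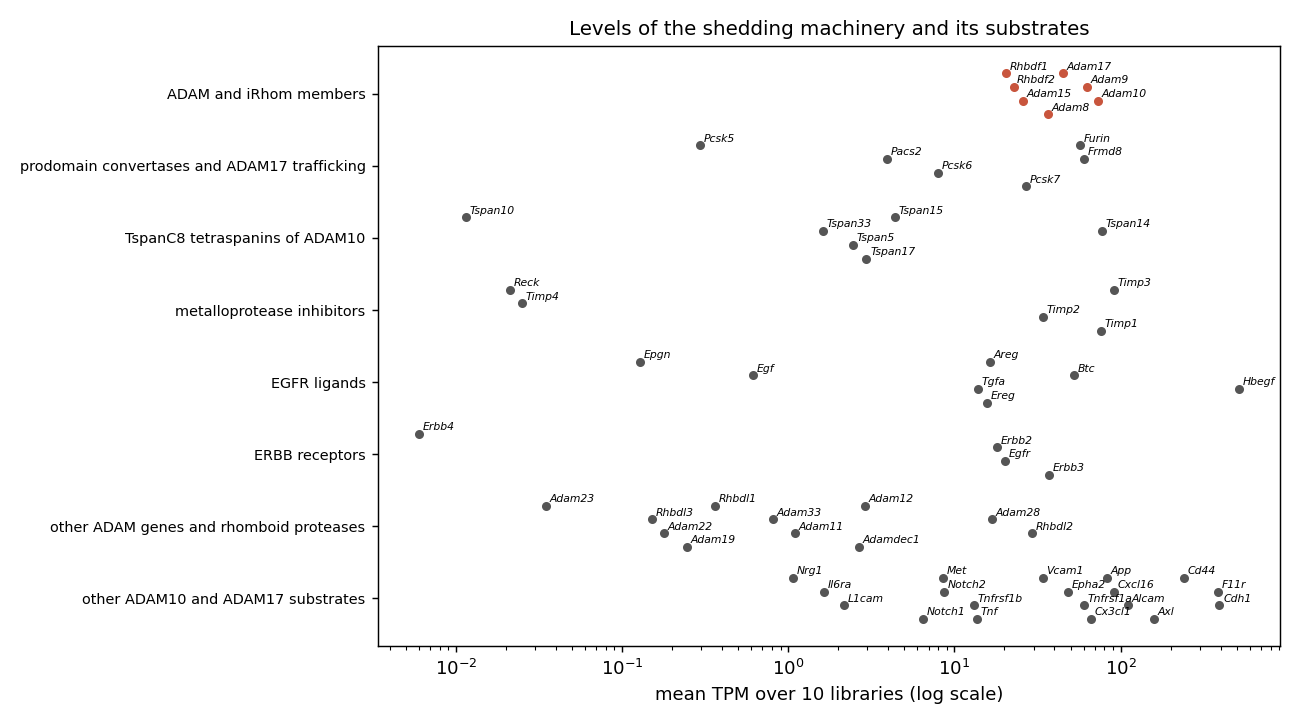
Mean TPM over the 10 libraries (horizontal axis, log scale) of each gene, in rows by list, with the 7 members in red. The members lie between 20.4 and 73.6 TPM, Hbegf at 520 TPM, and Tspan14, at 77.7 TPM, is the one TspanC8 gene near the members.

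RNA was also measured for the convertases and trafficking proteins that prepare and move the proteases, down to Pcsk5 at 0.295 TPM. Frmd8, whose product iTAP keeps the iRhoms and ADAM17 stable at the surface, was at 60.3 ± 8.74 TPM. Furin, which removes the prodomain of several ADAM proteases, was at 57.2 ± 16.2 TPM. Frmd8 had 117, 123, 126, 137 and 127 CPM in the Egfr WT PSC libraries, against 151, 151, 109, 173 and 150 CPM in the Egfr KO PSC ones. All Egfr KO PSC libraries except replicate 3 were above all 5 Egfr WT PSC libraries, and the log2 fold change was 0.22 (SE 0.12, edgeR adjusted p = 0.667), or 0.11 with the macrophage score and 0.13 with the fibroblast score. The convertase gene Pcsk6 averaged 18.99 ± 5.35 CPM (SD, n = 5) beside Egfr WT PSCs, against 24.3 ± 2.50 CPM beside Egfr KO PSCs (a log2 fold change of 0.36 with an SE of 0.19, edgeR adjusted p = 0.670). It was 0.21 without Egfr WT PSC replicate 1, the lowest library at 10.7 CPM, and 0.54 with the macrophage score. The 6 genes of this list had 3 fitted fold changes above 0 and 3 below, with a median log2 fold change of 0.04.

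The TspanC8 tetraspanins escort ADAM10 and steer it towards its substrates. Tspan14 was at 77.7 ± 8.57 TPM, about the level of Adam10, while Tspan15, Tspan17, Tspan5 and Tspan33 were between 1.63 and 4.39 TPM and Tspan10 was below the filter, with 0 to 2 counts per library. Of the 5 tested, 2 were fitted higher and 3 lower, with a median of -0.14. Tspan17 averaged 2.51 ± 0.717 CPM (SD, n = 5) beside Egfr WT PSCs, against 1.79 ± 0.556 CPM beside Egfr KO PSCs (a log2 fold change of -0.48 with an SE of 0.30, edgeR adjusted p = 0.709), and the fold change was -0.30 without Egfr KO PSC replicate 5. Tspan15 had 11.2, 9.65, 12.8, 8.93 and 7.57 CPM in the Egfr WT PSC libraries, against 9.49, 6.29, 2.94, 2.52 and 13.4 CPM in the Egfr KO PSC ones. The Egfr KO PSC values spread on both sides of the Egfr WT PSC group (log2 fold change -0.53, SE 0.40, edgeR adjusted p = 0.758). Single libraries moved this value to -0.33 (without Egfr KO PSC replicate 3), -0.32 (without Egfr KO PSC replicate 4) or -0.91 (without Egfr KO PSC replicate 5), and the macrophage score to -0.82.

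Of the metalloprotease inhibitors, Timp3, the inhibitor of ADAM17 among the TIMP proteins, was the most abundant at 91.0 ± 38.2 TPM. It had 406, 247, 274, 257 and 544 CPM in the Egfr WT PSC libraries, against 219, 247, 107, 186 and 336 CPM in the Egfr KO PSC ones. The groups overlapped through Egfr KO PSC replicate 5, which lay above 3 of the 5 Egfr WT PSC libraries. Its log2 fold change was -0.66 (SE 0.29, 95% confidence interval -1.30 to -0.02, edgeR adjusted p = 0.604). It was -0.44 without Egfr WT PSC replicate 5, -0.42 in limma voom, -1.27 with the macrophage score and -0.51 with the fibroblast score. Timp1, an inhibitor of matrix metalloproteases and of ADAM10, averaged 42.4 ± 15.2 CPM (SD, n = 5) beside Egfr WT PSCs, against 36.2 ± 1.79 CPM beside Egfr KO PSCs (a log2 fold change of -0.23 with an SE of 0.21, edgeR adjusted p = 0.811). That value was -0.06 without Egfr WT PSC replicate 2, -0.12 without Egfr WT PSC replicate 5 and -0.37 without Egfr WT PSC replicate 3, and it was -0.09 with the macrophage score, -0.04 with the fibroblast score and -0.06 in limma voom. Fibroblasts also make TIMP proteins: 7 of the 10 fibroblast markers were fitted lower and 3 higher with Egfr KO PSCs, none called. Their sum was 368 to 924 CPM beside Egfr WT PSCs, against 344 to 1238 CPM with Egfr KO PSCs. The part of fibroblasts in the Timp3 and Timp1 values was not tested. Timp4 and Reck were below the filter, with at most 9 counts per library.

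Of the 6 EGFR ligands tested 4 were fitted higher and 2 lower, with a median of 0.19. Hbegf had 830, 916, 660, 634 and 695 CPM in the Egfr WT PSC libraries, against 692, 549, 522, 622 and 671 CPM in the Egfr KO PSC ones, with overlap in the middle of the range (a log2 fold change of -0.29 with an SE of 0.13, edgeR adjusted p = 0.604). Tgfa averaged 36.7 ± 6.67 CPM (SD, n = 5) beside Egfr WT PSCs, against 45.1 ± 9.25 CPM beside Egfr KO PSCs (a log2 fold change of 0.30 with an SE of 0.16, edgeR adjusted p = 0.673). It was 0.19 without Egfr KO PSC replicate 4 and in limma voom, 0.16 with the macrophage score and 0.46 with the fibroblast score. Of the ERBB receptors, Erbb2 was at 62.2 ± 4.68 CPM beside Egfr WT PSCs against 56.7 ± 8.93 CPM beside Egfr KO PSCs (edgeR adjusted p = 0.798) and Egfr at 58.5 ± 16.2 CPM beside Egfr WT PSCs against 63.4 ± 9.12 CPM beside Egfr KO PSCs (edgeR adjusted p = 0.891). Because the PSCs carried the knockout and the epithelium did not, these Egfr levels are no check of the labels. Leaving out 1 library gave log2 fold changes of -0.22 to -0.08 for Erbb2 (-0.13 with all libraries) and of 0.0069 to 0.22 for Egfr (0.12 with all libraries), and Egfr was at -0.08 with the macrophage score and 0.32 with effective length offsets. Of the 3 receptors tested 2 were fitted higher and 1 lower, with a median of 0.09, and Erbb4 was below the filter.

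Among the other ADAM genes and the rhomboid proteases, Rhbdl2, an active rhomboid that can cut EGF, was at 29.2 ± 5.02 TPM and Adam28 at 16.8 ± 11.9 TPM, and the other 9 were at 2.91 TPM or less. Of the 9 tested 3 were fitted higher and 6 lower, with a median of -0.11. Rhbdl1 was below 1 CPM in every library, with 0.486 ± 0.279 CPM beside Egfr WT PSCs against 0.172 ± 0.222 CPM beside Egfr KO PSCs (edgeR adjusted p = 0.652), and its log2 fold change of -1.43 became -2.61 without Egfr KO PSC replicate 2. Adam22, an ADAM without protease activity that acts at synapses, averaged 1.19 ± 0.194 CPM (SD, n = 5) beside Egfr WT PSCs, against 0.914 ± 0.189 CPM beside Egfr KO PSCs (a log2 fold change of -0.38 with an SE of 0.23, edgeR adjusted p = 0.7103).

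The other substrates of ADAM10 and ADAM17 included junction proteins, with Cdh1 (E-cadherin) at 394 ± 98.6 TPM and F11r (junctional adhesion molecule A) at 388 ± 61.2 TPM. Of the 19 tested 6 were fitted higher and 13 lower, with a median of -0.05, and in 1 of 19 the groups did not overlap, against 1.52% of all genes. That gene was Vcam1, an adhesion molecule for leukocytes, with 112, 76.5, 127, 91.6 and 96.9 CPM in the Egfr WT PSC libraries, against 16.7, 74.8, 56.2, 47.5 and 48.7 CPM in the Egfr KO PSC ones. Its log2 fold change was -1.05 (SE 0.30, 95% confidence interval -1.71 to -0.39), and neither edgeR (adjusted p = 0.440) nor DESeq2 (adjusted p = 0.0849) called it. Endothelial cells also make Vcam1: all 8 endothelial markers were fitted lower with Egfr KO PSCs, none called, and their sum was 26.3 to 41.6 CPM beside Egfr WT PSCs, against 11.8 to 55.3 CPM with Egfr KO PSCs. Egfr KO PSC replicate 1 had the lowest endothelial sum (11.8 CPM) and the lowest Vcam1 (16.7 CPM) of the series. Egfr KO PSC replicate 3, with the highest endothelial sum, had 56.2 CPM of Vcam1. The part of endothelial cells in the Vcam1 values was not tested. Cxcl16, a chemokine that ADAM10 releases from the membrane, averaged 141 ± 28.0 CPM (SD, n = 5) beside Egfr WT PSCs, against 109 ± 15.6 CPM beside Egfr KO PSCs. Its log2 fold change was -0.37 (SE 0.15, 95% confidence interval -0.70 to -0.05, edgeR adjusted p = 0.554), and -0.56 with the fibroblast score.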

How the data were processed

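Epithelial RNA of 10 libraries was quantified by the submitters with Salmon 1.9.0 on a GRCm39 reference, per the submitters' processing notes. No source used here names the annotation release. The deposited files hold an expected (estimated) count and a TPM per transcript, neither filtered. Transcripts were assigned to genes by identifier with GENCODE M21 (137063 of 147828, with 98.1% to 98.7% of the counts). Names, transcript sequences and the place of the coding sequence within each transcript were taken from it. No genomic positions are given, because its build is GRCm38. Expected counts were summed per gene and rounded, and deposited TPM summed per gene. Groups were compared with edgeR 4.0.16 (R 4.3.3): quasi-likelihood F test, TMM, expression filter with minimum count 10, no covariate, Benjamini-Hochberg adjustment over all genes tested, threshold 0.05. The test was also run on all transcripts, and both were tested on simulated data. DESeq2 1.42.0, limma 3.58.1 (pseudocount 1 for TPM) and the other settings of the closing section were alternatives. The 7 genes and the lists were chosen with earlier results of these data known. Named besides the members were the 2 genes of lowest p of each list, other list genes by level, and the 2 genes most like each member. The transcripts named either led their gene by TPM or were coding forms compared, for Adam8 and Adam15. Replicate numbers follow accession order.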

Additional observations from a re-analysis of the deposited data

Results flagged for a closer look

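A library far from the rest of its group was looked for in 114 groups of 5 values, of which chance flags about 1 in 20, and 6 stood out. Adam17 was at 167 CPM in Egfr WT PSC replicate 4, above the other 4 of its group. Rhbdf2 was at 23.3 TPM in Egfr WT PSC replicate 3, the highest of its group. The share of Adam15 TPM in protein-coding forms was 23.6% in Egfr WT PSC replicate 5, and that of Adam8 was 88.3% in Egfr KO PSC replicate 5, each the lowest of its group. Tspan17 was lowest in Egfr KO PSC replicate 5 (0.818 CPM), and Rhbdl1 highest in Egfr KO PSC replicate 2 (0.560 CPM).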

How the results depend on the processing

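None of the 7 members was called in any of the 20 alternative fits, with adjusted p of 0.457 or more. Over all genes DESeq2 called 127, limma voom with sample weights 3, limma on log2(TPM + 1) 2, and edgeR without expression filter or with library totals without TMM 1 each. Leaving out 1 library gave between 0 and 4 (4 without Egfr KO PSC replicate 1). Over these fits the log2 fold change ran from -0.58 to -0.05 for Adam9, -0.54 to -0.13 for Adam10, -0.21 to -0.0077 for Adam15 and 0.05 to 0.23 for Rhbdf2, with the values farthest below 0 from the macrophage score (Adam9) and the fibroblast score (Adam10, Adam15). The sign turned for Adam8 (-0.11, macrophage score as a covariate), Rhbdf1 (0.0053, same fit), Adam17 (0.037 with the number in the file names in the model, 0.0060 with protein-coding transcripts only, the latter added after seeing the data) and Egfr (-0.077, macrophage score); the cause was not tested. Leaving out 1 library gave -0.087 to 0.22 for Adam8 and -0.12 to 0.079 for Adam17. With protein-coding transcripts only, mean TPM was 9.55 for Adam15 (rank 7) and 15.1 for Rhbdf1 (rank 6), and Rhbdf2 had rank 5; leaving out a library or using CPM per kilobase changed no rank. No paired analysis was possible because the replicate numbers follow accession order and the labels tie no Egfr WT PSC library to an Egfr KO PSC one. With 5 libraries a group, the intervals allow members to differ by up to 1.47-fold upwards (Adam8) or down to 0.571 times (Adam9).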
